A study of Mus musculus with 8 samples.

Results

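The genes described here are the odorant receptor genes of mouse chromosome 11. They are the rows of the deposited count table whose symbol starts with Olfr and whose chromosome is 11, a rule that uses name and position. This gave 81 of the table's 25913 genes and 81 of its 1110 odorant receptor genes. Of the 81, 2 carry a pseudogene name, Olfr1375-ps1 and Olfr406-ps, but the GENCODE M21 annotation lists both as protein-coding. It lists Olfr225 as a polymorphic pseudogene. Enough reads for a test were found for 61 of the 81, and 18 had fewer reads. Olfr1373 and Olfr1371 had no read in any library. That allows up to 3 reads, or 0.109 to 0.153 CPM (a gene's counts scaled to a common library size) by library. The coding sequence of Olfr1373 is 98.6% identical to that of Olfr1381.

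Odorant receptors are G protein-coupled receptors on the cilia of olfactory sensory neurons. A maturing neuron settles on a single receptor allele, so the level of a receptor's RNA in the tissue follows how many neurons chose it as well as how much each of those neurons makes. In bulk tissue, fewer cells of a type and less RNA per cell cannot be told apart. Receptor genes lie in arrays of near relatives that arose by duplication. Mouse class I receptors lie on chromosome 7, so the receptors of chromosome 11 are of class II. Lhx2 and Ebf proteins bind receptor promoters and distant enhancers, and each receptor is used within a zone of the epithelium that runs from dorsal to ventral.

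The study asked how mice change when olfactory sensory neurons lose Igf1r, the receptor for insulin-like growth factor 1. All 8 libraries came from olfactory epithelium of C57BL/6J mice aged 40 weeks, 4 titled IGF1R_flfl (replicates 1, 2, 13 and 3) and 4 titled OMP_IGF1R (replicates 11, 12, 17 and 18). The OMP in that name is olfactory marker protein, a gene of mature sensory neurons, and the series describes the knockout as tissue-specific and homozygous, but the labels name no Cre driver. The titles and the genotype field disagree. The libraries titled IGF1R_flfl carry the genotype "OMPIGF1 (KO)" and those titled OMP_IGF1R carry "OMPflfl (Ctrl)". Groups are therefore named by title throughout, values per library run in the order 1, 2, 13, 3 and 11, 12, 17, 18, every difference is OMP_IGF1R over IGF1R_flfl, and its direction relative to the genotype depends on which label is right. Whether each library is from its own mouse is not stated in the labels, and the spread behind the p-values may thus be technical.

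The targeted gene was checked first. Igf1r was at 72.9, 55.5, 67.9 and 69.9 CPM across IGF1R_flfl against 49.6, 43.9, 34.5 and 40.5 CPM across OMP_IGF1R (log2 fold change -0.66, SE 0.116, edgeR adjusted p = 0.0117). Omp differed by -1.45 (SE 0.132, edgeR adjusted p = 0.00179). Libraries held 18802471 to 27793375 counts, and 1425 of 17381 tested genes (8.2%) passed an adjusted p of 0.05 and are said to be called, 933 lower and 492 higher. Defining genes of the labelled tissue were present in every library: the 17 mature neuron genes summed to 18360 to 25490 CPM in IGF1R_flfl and 11050 to 12960 CPM in OMP_IGF1R, and the 6 sustentacular genes to 7667 to 9639 and 7623 to 8581 CPM. In IGF1R_flfl 2, 10 genes of the olfactory bulb and of oligodendrocytes reached 2083 CPM together against 153.1 to 240.4 in the other libraries, and in OMP_IGF1R 17, 10 muscle genes summed to 535.4 CPM against 2.82 to 14.3. Receptor counts without these libraries are given below.

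Near-identical copies limit what a read can tell, and Olfr43, 1 of the 2 receptors called in every fit that left out a library, has such a copy. Its coding sequence differs from that of Olfr403 at 12 of 939 bases (98.7% identity), and 417 of its 840 stretches of 100 bases also occur in Olfr403 (49.6%). The sequences below are coding bases 238 to 387 of each gene on GRCm38, 5′ to 3′, from the GENCODE M21 annotation, with the 6 differing bases in capitals.
Olfr43: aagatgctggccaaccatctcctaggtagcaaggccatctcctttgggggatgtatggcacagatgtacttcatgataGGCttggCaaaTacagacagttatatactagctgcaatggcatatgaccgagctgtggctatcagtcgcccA
Olfr403: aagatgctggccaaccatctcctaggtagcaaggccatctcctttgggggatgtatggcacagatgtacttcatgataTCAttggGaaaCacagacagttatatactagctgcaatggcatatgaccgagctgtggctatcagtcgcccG

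The promoters of 3 receptors of the same array are shown because they share a motif arrangement while the values of their genes, given below, do not go the same way. They were chosen after those values were seen. Each window of 300 bases, from 250 before to 50 after the annotated start, is from RefSeq on GRCm38.p6. It lies at chr11:73399446-73399745 on the minus strand for Olfr1, at chr11:73428428-73428727 on the minus strand for Olfr378 and at chr11:73350609-73350908 on the plus strand for Olfr20. Capitals mark TAATTA and TAATGA, words of the kind that homeodomain proteins such as Lhx2 recognise.
Olfr1: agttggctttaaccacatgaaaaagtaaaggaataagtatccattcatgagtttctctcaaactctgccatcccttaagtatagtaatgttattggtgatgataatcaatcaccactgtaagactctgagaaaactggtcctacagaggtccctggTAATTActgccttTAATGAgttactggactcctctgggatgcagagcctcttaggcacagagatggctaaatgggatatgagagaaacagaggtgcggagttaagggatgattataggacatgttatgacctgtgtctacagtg
Olfr378: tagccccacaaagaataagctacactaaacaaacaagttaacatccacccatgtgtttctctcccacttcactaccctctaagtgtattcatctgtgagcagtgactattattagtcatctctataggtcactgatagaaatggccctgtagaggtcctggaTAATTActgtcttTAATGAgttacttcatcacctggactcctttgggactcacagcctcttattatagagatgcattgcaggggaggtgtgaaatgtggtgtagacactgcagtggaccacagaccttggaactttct
Olfr20: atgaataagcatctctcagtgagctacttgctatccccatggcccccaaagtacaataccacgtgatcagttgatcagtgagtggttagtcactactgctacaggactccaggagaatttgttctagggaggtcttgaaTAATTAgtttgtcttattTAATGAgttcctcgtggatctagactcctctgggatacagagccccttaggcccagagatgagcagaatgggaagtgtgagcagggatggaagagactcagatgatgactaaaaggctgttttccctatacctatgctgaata

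In Olfr1 the 2 words began 94 and 81 bases before the start, in Olfr378 88 and 75 bases before it, and in Olfr20 111 and 93 bases before it. The windows of Olfr1 and Olfr378 were identical at 59% of aligned bases. Windows were found for 68 of the 81 receptors, 69 windows in all, and 45 of these begin their gene at the coding start, so they do not mark a transcription start. On both strands, TAATTA occurred in 14 of 69 windows (20.3%), TAATGA in 29 (42.0%) and both in 8 (11.6%). The shares were 18.4%, 27.8% and 6.14% among 879 windows of receptors on other chromosomes and 5.29%, 9.78% and 1.13% among all 32851 windows. The Ebf word CCCNNGGG occurred in 2 windows (2.9%), against 3.07% of other receptors' windows and 13.7% of all windows. In the 24 windows that do not begin at a coding start, TAATTA occurred in 16.7%, TAATGA in 54.2%, both in 12.5% and CCCNNGGG in 4.17%. The shares were 18.5%, 31.9%, 6.3% and 7.98% in 238 such windows of other receptors. In all 30936 such windows they were 4.88%, 9.27%, 0.996% and 14.2%. These are matches of letters and not sites of binding.

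Chromosome 11 receptors were lower as a set in the libraries titled OMP_IGF1R, except where libraries were scaled to mature neuron genes, as given below. Their summed level was 252, 228, 244 and 281 CPM in IGF1R_flfl 1, 2, 13 and 3, a mean of 251.3 ± 22.3 (SD, n = 4), and 176, 157, 182 and 201 CPM in OMP_IGF1R 11, 12, 17 and 18, a mean of 178.7 ± 18.1 (SD, n = 4). The groups did not overlap, and the ratio of the means was 0.711. Of the 61 tested receptors, 11 were called lower (18%) and 1 was called higher (1.64%), where 5.37% of all tested genes were called lower and 2.83% higher (edgeR quasi-likelihood test, Benjamini-Hochberg adjusted p under 0.05 over all tested genes). The log2 fold change was negative in 52 and positive in 9, and in 6 it was -1 or less, as in 1.89% of all tested genes. Negative values made up 85.2% here, 75.6% among 814 tested receptors of other chromosomes and 52.5% among all tested genes.

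The median log2 fold change over the 61 was -0.451, against -0.318 for receptors of other chromosomes and -0.0117 for all genes, and it was 0.201 where libraries were scaled to the mature neuron genes in place of all genes. That scaling moved the median of all genes to 0.628. The receptors' median lay 0.427 below it on the log2 scale, against 0.44 below with the usual scaling. A change of scaling moves all genes by nearly the same amount, so this gap could hardly change and is no separate result. Every OMP_IGF1R library lay below every IGF1R_flfl library in 19 receptors and above in 1, where 10.3% and 6.57% of all tested genes did so. At an unadjusted p under 0.05 the counts were 26 lower and 2 higher, against 14.1% and 9.35% of all genes. Among the 61, 4 reached the read minimum in every library of IGF1R_flfl only and 1 in every library of OMP_IGF1R only, so these entered through that group. Olfr1394, 1 of the 11 called lower and of the 6 at -1 or less, is among the 4.

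The receptors of other chromosomes were lower by a similar ratio. All 1029 receptors of other chromosomes summed to 2927 ± 270 CPM in IGF1R_flfl and 2074 ± 144 CPM in OMP_IGF1R (SD, n = 4 each), a ratio of 0.709. Chromosome 11 made up a similar part of all receptor CPM in most libraries, 7.86%, 7.86%, 8.05% and 7.87% across IGF1R_flfl against 7.77%, 7.56%, 7.44% and 9.0% across OMP_IGF1R. OMP_IGF1R 18 stood highest. Called lower were 13.6% of tested receptors of other chromosomes. By chromosome, for those with the most receptors, the share was 27.9% on 17, 24.2% on 16, 22.9% on 19, 18.4% on 14, 15.4% on 7, 12.8% on 2, 11.1% on 10 and 5.68% on 9, so the 18% of chromosome 11 lay within their range. Median log2 fold changes were -0.591, -0.72 and -0.586 on 17, 16 and 19 and between -0.348 and -0.247 on 14, 7, 2, 10 and 9. These values were not tested against those of chromosome 11.

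**Figure D1:**
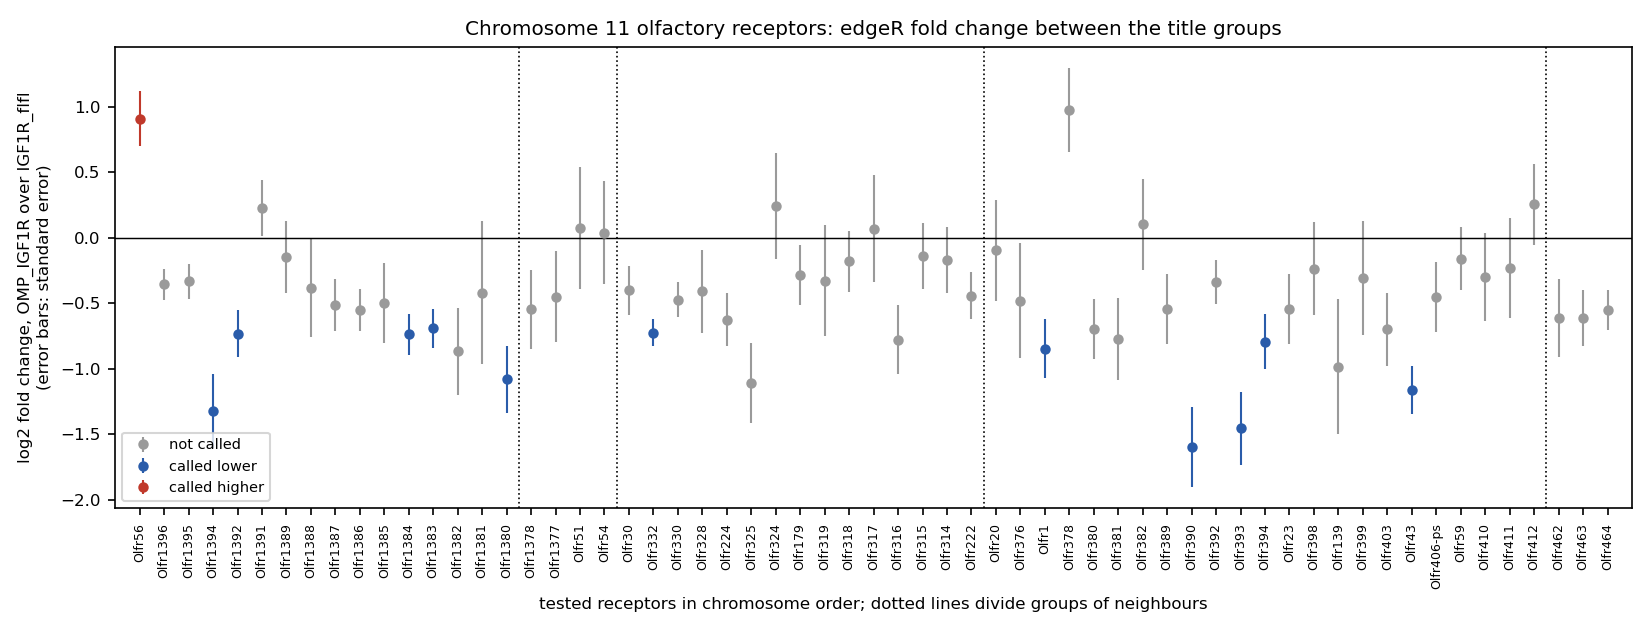
Log2 fold change of OMP_IGF1R over IGF1R_flfl (vertical axis, error bars are standard errors) for the 61 tested receptors in chromosome order, with dotted lines between groups of neighbours. With TMM scaling, points lie below 0 for 52 receptors, with 11 called lower (blue) and Olfr56 called higher (red).

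The 81 genes fell into 6 groups of neighbours, parted wherever more than 1 Mb separated adjacent receptors. The first group runs from Olfr56 to Olfr1380 (chr11:48978889-49564860 on GRCm38, as are all gene positions here) and holds 19 receptors, of which 16 were tested, 5 called lower and 1 higher. The group from Olfr1378 to Olfr1375-ps1 (chr11:50969020-51049050) holds 5, of which 4 were tested and none was called by edgeR, also at an unadjusted p under 0.05. Olfr1373 and Olfr1371, without a read, form a group of their own. The group from Olfr30 to Olfr225 (chr11:58454915-59614225) holds 23, with 15 tested and 1 called lower. The largest, from Olfr20 to Olfr412 (chr11:73350839-74365609), holds 29, with 23 tested and 5 called lower. Olfr462, Olfr463 and Olfr464 form the last (chr11:87888959-87915003), with 3 tested and none called, 2 of them lower at an unadjusted p under 0.05. Over all tested genes, edgeR called 5.37% lower and 2.83% higher, and 14.1% were lower at an unadjusted p under 0.05. The 1 of 15 in the Olfr30 to Olfr225 group (6.67%) is near the share of all genes called lower.

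Summed levels of these groups did not all part the libraries. The first group was at 80.5 ± 8.05 CPM in IGF1R_flfl and 59.1 ± 9.14 in OMP_IGF1R, a ratio of 0.734. The Olfr30 to Olfr225 group was at 88.3 ± 13.9 and 64.5 ± 2.56 CPM, a ratio of 0.731, and the Olfr20 to Olfr412 group at 69.8 ± 7.4 and 45.4 ± 7.18 CPM, a ratio of 0.651. In each of these the lowest IGF1R_flfl library lay above the highest OMP_IGF1R library. The last group was at 7.16 ± 0.93 and 4.78 ± 0.653 CPM, again apart. In the Olfr1378 to Olfr1375-ps1 group the sums were 5.6 ± 2.58 and 4.92 ± 1.44 CPM and the libraries overlapped (SD, n = 4 for each mean).

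**Figure D2:**
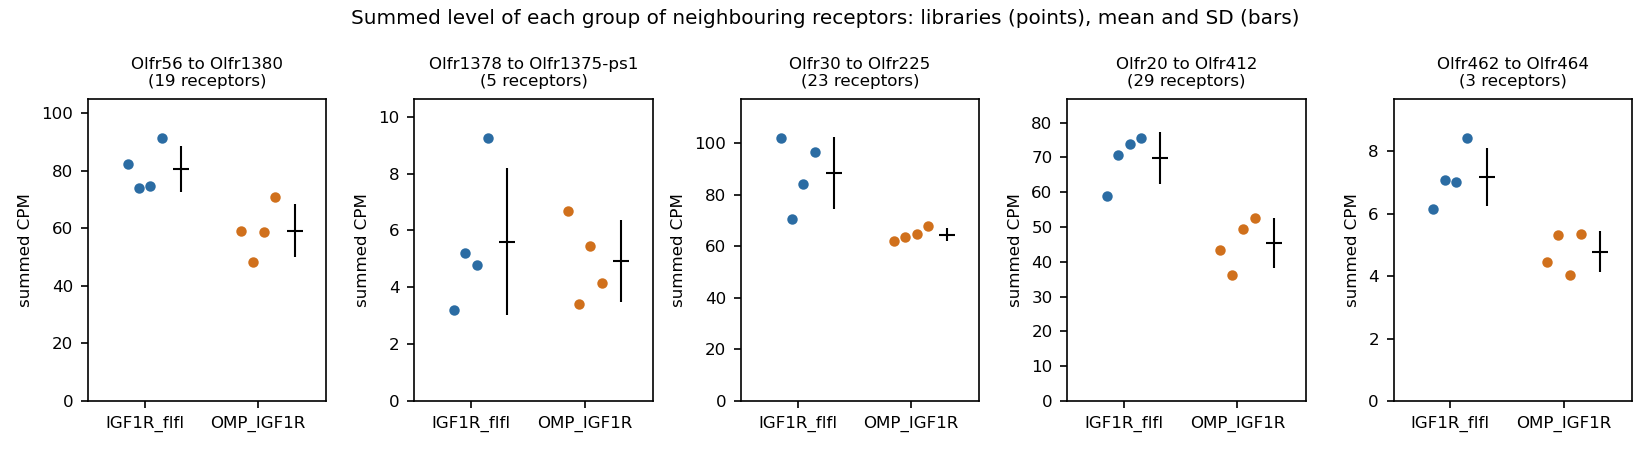
Summed TMM-scaled CPM of the receptors in each of 5 groups of neighbours (vertical axes start at 0), with a point for each library and a bar for the mean and SD of the 4 libraries of a title group. The groups of libraries are apart in 4 panels and overlap in the Olfr1378 to Olfr1375-ps1 panel.

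Olfr43 (ENSMUSG00000070377, chr11:74206198-74207289, minus strand) was called lower and is the near copy of Olfr403 described above. It was at 5.61, 7.7, 5.72 and 7.77 CPM across IGF1R_flfl against 2.81, 2.52, 2.74 and 3.88 CPM across OMP_IGF1R. Every OMP_IGF1R library was below every IGF1R_flfl library, and its log2 fold change was -1.16 (SE 0.183, edgeR adjusted p = 0.00814). Olfr403 was at 0.761 to 1.41 and 0.487 to 0.96 CPM, and was not called (log2 fold change -0.70, SE 0.278, edgeR adjusted p = 0.165). How reads that fit both genes were counted is not given in the sources used here, so the split between these 2 genes is uncertain.

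Olfr390, Olfr393 and Olfr394 lie together in the same array. Olfr390 (chr11:73782966-73787875, plus strand) was at 6.63, 7.35, 9.54 and 5.63 CPM across IGF1R_flfl against 1.74, 1.36, 2.74 and 3.76 CPM across OMP_IGF1R (log2 fold change -1.60, SE 0.306, edgeR adjusted p = 0.0155). This was the lowest fold change among the 61. Olfr393 (chr11:73847185-73848123, minus strand) was at 2.35, 4.04, 4.22 and 3.61 against 0.969, 0.98, 1.24 and 1.96 CPM (log2 fold change -1.45, SE 0.277, edgeR adjusted p = 0.015). Olfr394 (chr11:73887438-73888370, minus strand) was at 2.35, 2.59, 2.0 and 2.42 against 1.12, 1.66, 0.973 and 1.61 CPM (log2 fold change -0.79, SE 0.209, edgeR adjusted p = 0.0483). The call of Olfr394 was lost with DESeq2 size factors (edgeR adjusted p = 0.0527), upper-quartile factors (0.0577), no read minimum (0.0687) and limma voom (0.0601), and it held with DESeq2. In all 3 genes the groups were apart, and none shares a coding stretch of 100 bases with another annotated gene. Olfr392, between Olfr390 and Olfr393 on the minus strand, was at 5.79 to 8.64 and 5.05 to 7.64 CPM, overlapping, with a log2 fold change of -0.33 that was not called (edgeR adjusted p = 0.27).

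Olfr1 (chr11:73395076-73399495, minus strand), whose promoter is shown above, was at 6.81, 9.95, 10.04 and 6.74 CPM across IGF1R_flfl against 4.13, 3.5, 4.38 and 6.61 CPM across OMP_IGF1R. Its log2 fold change was -0.85 (SE 0.224, edgeR adjusted p = 0.0488), and the groups were apart by a narrow margin, OMP_IGF1R 18 standing just below IGF1R_flfl 3. Its call was lost with DESeq2 size factors (edgeR adjusted p = 0.0526), upper-quartile factors (0.0578), no read minimum (0.0646) and limma voom (0.0676), and it held with DESeq2. Olfr378 was at 0.652, 0.457, 0.954 and 0.674 against 1.43, 0.716, 1.46 and 1.77 CPM. Its log2 fold change of 0.97 (SE 0.322) was the highest of the 61 but was not called (edgeR adjusted p = 0.102), and OMP_IGF1R 12 overlapped the other group. Olfr20 was at 0.797 to 2.3 and 0.806 to 2.14 CPM with a log2 fold change of -0.10 (SE 0.388), and all of its coding stretches of 100 bases also occur in the gene model Gm49340. Differences between these 3 fold changes were not tested.

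In the first group of neighbours, Olfr1384 (chr11:49513618-49514651, plus strand) had the highest level per kilobase of exon of all 81, 12.95 CPM per kb over the 8 libraries. It was at 16.5, 16.8, 16.9 and 16.8 CPM in IGF1R_flfl 1, 2, 13 and 3, a narrow range, and at 10.4, 6.93, 10.1 and 12.8 CPM in OMP_IGF1R 11, 12, 17 and 18 (log2 fold change -0.74, SE 0.157, edgeR adjusted p = 0.0228). Its neighbour Olfr1383 (chr11:49523721-49524660, plus strand) was at 8.65, 8.5, 7.68 and 11.3 against 5.61, 4.79, 6.33 and 5.68 CPM (log2 fold change -0.69, SE 0.146, edgeR adjusted p = 0.0217). Both genes were lower in every OMP_IGF1R library than in any IGF1R_flfl library. Of Olfr1383's coding stretches of 100 bases, 23.1% also occur elsewhere, most of them in Olfr1372-ps1.

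Olfr1392 (chr11:49293297-49294314, plus strand) was at 7.61, 5.18, 5.91 and 8.41 CPM across IGF1R_flfl against 3.83, 3.54, 4.11 and 4.84 CPM across OMP_IGF1R (log2 fold change -0.73, SE 0.178, edgeR adjusted p = 0.0365). Olfr1394 (chr11:49160016-49160954, plus strand) was at 1.34, 1.52, 1.23 and 1.47 against 0.357, 0.377, 0.619 and 0.845 CPM (log2 fold change -1.32, SE 0.284, edgeR adjusted p = 0.0234). Olfr1380 (chr11:49563923-49564860, plus strand) was at 1.81, 1.68, 1.45 and 1.78 against 0.765, 0.452, 0.885 and 1.07 CPM (log2 fold change -1.08, SE 0.256, edgeR adjusted p = 0.0331). Olfr1394 had 7 and 10 reads in OMP_IGF1R 11 and 12 and reached the read minimum in all libraries of IGF1R_flfl only. With every gene that had a read in the fit, its edgeR adjusted p was 0.0352. The groups were apart in these 3 genes too, and OMP_IGF1R 18 was the highest of its group in each. Olfr1380 is 98% identical in coding sequence to Olfr1381, with 40.2% of its stretches of 100 bases found elsewhere, and Olfr1392 shares 20.1% of its stretches, so the levels of both are uncertain.

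Olfr332 (ENSMUSG00000050813, chr11:58489719-58492499, minus strand) was the only call among the 15 tested receptors of the Olfr30 to Olfr225 group. It was at 12.8, 13.6, 12.7 and 13.4 CPM across IGF1R_flfl against 6.89, 7.27, 8.45 and 9.1 CPM across OMP_IGF1R. The groups were far apart for their spread, 13.1 ± 0.431 against 7.93 ± 1.03 CPM (SD, n = 4 each), and the test passed (log2 fold change -0.72, SE 0.106, edgeR adjusted p = 0.00674). It shares no coding stretch of 100 bases with another gene. Its neighbour Olfr330, second of the 81 in level per kilobase, was at 17.1, 13.3, 15.6 and 12.5 against 10.2, 8.7, 10.9 and 12.4 CPM, a log2 fold change of -0.47 that fell short of a call (SE 0.136, edgeR adjusted p = 0.0666). In Olfr328, IGF1R_flfl 1 was at 19.6 CPM and all other libraries between 6.13 and 12.7 CPM.

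**Figure D3:**
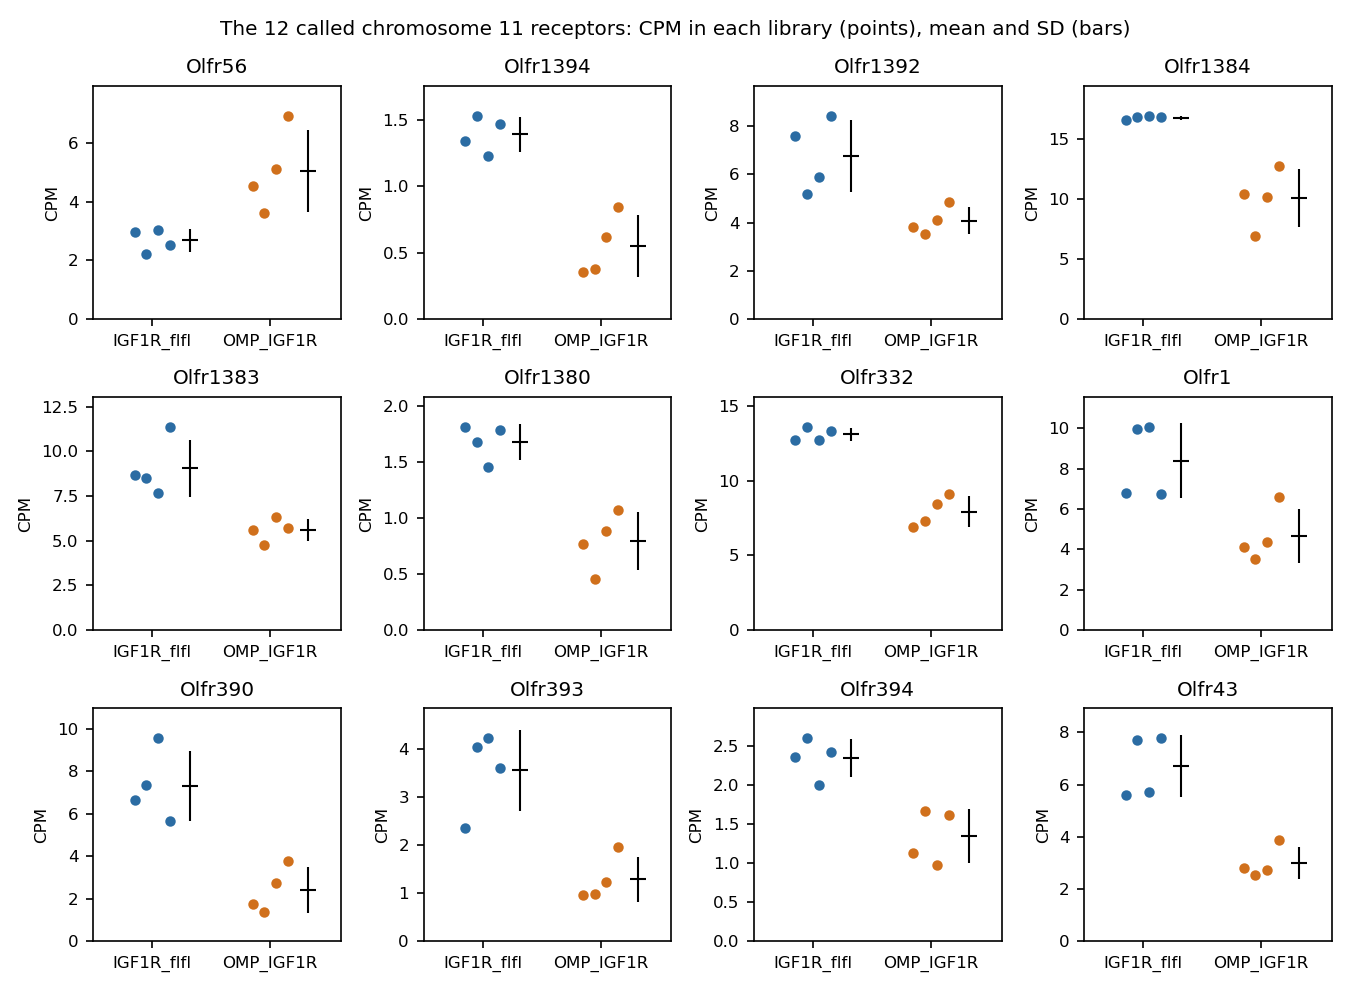
CPM of the 12 called receptors in each library (points, vertical axes start at 0), with the mean and SD of the 4 libraries of each title group beside them. The libraries titled OMP_IGF1R are all higher in Olfr56 and all lower in the other 11 genes.

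Olfr56 (ENSMUSG00000040328, chr11:48978889-49135387, plus strand) was the only receptor of the chromosome called higher. It was at 2.97, 2.21, 3.04 and 2.54 CPM across IGF1R_flfl against 4.54, 3.62, 5.13 and 6.91 CPM across OMP_IGF1R (log2 fold change 0.91, SE 0.210, edgeR adjusted p = 0.0302). Its bounds in the deposited table are far longer than a receptor gene and overlap 7 other genes of the table, unlike those of any other called receptor. Among the 7 are the interferon-induced GTPase genes Tgtp1, Tgtp2 and, on the same strand as Olfr56, Ifi47. None of the 7 was called.

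Ifi47 was at 6.63, 5.18, 5.54 and 3.05 CPM across IGF1R_flfl against 5.61, 9.23, 9.25 and 5.84 CPM across OMP_IGF1R (log2 fold change 0.55, SE 0.257, edgeR adjusted p = 0.232). Tgtp1 differed by 1.28 (edgeR adjusted p = 0.0754), Tgtp2 by 0.74 (edgeR adjusted p = 0.195), Gm12185 by 1.2 (edgeR adjusted p = 0.102), 9930111J21Rik1 by -0.09 and 9930111J21Rik2 by 0.11 on the log2 scale. The library order differed between the genes: OMP_IGF1R 18 was the highest in Olfr56 but below OMP_IGF1R 12 and 17 in Ifi47, Tgtp1 and Tgtp2. The receptor Olfr1396, on the opposite strand within the bounds of Olfr56, was at 13.6, 14.6, 13.4 and 15.9 against 12.6, 9.12, 10.7 and 12.6 CPM, a log2 fold change of -0.35 that was not called (edgeR adjusted p = 0.108). The 16 interferon genes listed for this tissue had summed levels of 176.7 to 230.7 CPM across IGF1R_flfl against 206.6 to 401.5 CPM across OMP_IGF1R, highest in OMP_IGF1R 17. The part of reads from these genes in the count of Olfr56 was not tested.

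**Figure D4:**
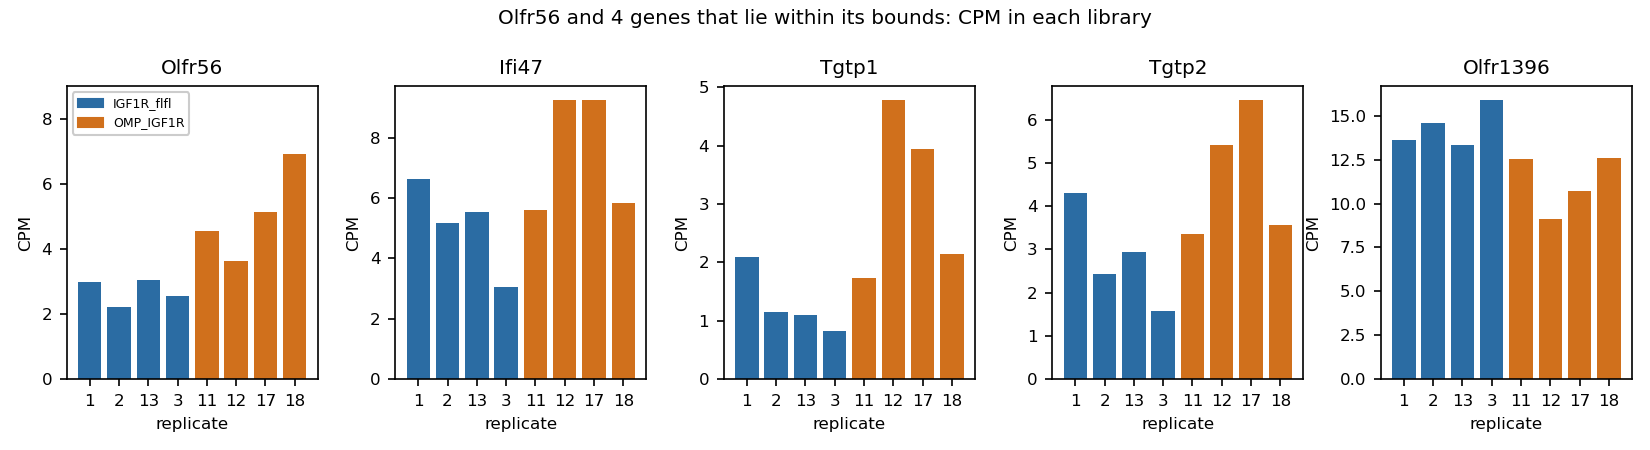
CPM in each library (bars, vertical axes start at 0, replicate numbers below) for Olfr56 and for 4 genes that lie within its bounds. OMP_IGF1R 18 is the tallest bar in Olfr56, and OMP_IGF1R 12 and 17 are the tallest in Ifi47, Tgtp1 and Tgtp2.

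The receptors with the most RNA per kilobase were Olfr1384, Olfr330, Olfr1395, Olfr1396, Olfr1383, Olfr222, Olfr332, Olfr1392, Olfr392 and Olfr1, from 12.95 down to 5.09 CPM per kb. Ranked by mean CPM without regard to length, the top 10 had Olfr328 and Olfr224 in place of Olfr1392 and Olfr1. By library, that set held 43.8% to 47.8% of the CPM of all 81. Of the 10 highest per kilobase, 5 were called lower, beside 18% of the 61 tested receptors and 5.37% of all tested genes. Olfr1395 was at 8.31 to 11.4 and 6.84 to 9.18 CPM and Olfr222 at 6.55 to 11.9 and 5.65 to 7.35 CPM, and both overlapped and were not called (edgeR adjusted p = 0.175 and 0.174). More calls fell on receptors with more reads. Of the tested receptors with mean counts of 93.38 to 330, 7 of 20 were called lower and 1 higher, with a median log2 fold change of -0.508. Of those with mean counts of 10.5 to 31.5, 2 of 21 were called, with a median of -0.496 and a median SE of 0.31 against 0.186 in the receptors with most reads. In counts simulated for this comparison over 17381 genes, 200 genes were changed. Of these, edgeR found 31% of the genes given a log2 change of 0.5 and 72% of those given 1. The changed genes were drawn from all 17381, so these shares do not measure what would be found among the receptors.

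In some receptors the libraries of a title group differed more among themselves than the groups did. Among the 61, IGF1R_flfl 3 was the highest of its group in 30 and OMP_IGF1R 18 in 29, while IGF1R_flfl 1 was the lowest of its group in 24 and OMP_IGF1R 12 in 25. The Olfr1378 to Olfr1375-ps1 group had summed levels of 3.19, 5.22, 4.77 and 9.24 CPM across IGF1R_flfl against 6.68, 3.43, 5.44 and 4.15 CPM across OMP_IGF1R. Its member with the smallest p, Olfr1378, was at 0.381 to 0.681 and 0.265 to 0.499 CPM (log2 fold change -0.54, edgeR adjusted p = 0.315).

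Dorsal genes of the zone list had a similar order of libraries. The 4 zone genes given here were chosen after their values were seen. Nqo1, a quinone reductase of dorsal sensory neurons, was at 132, 303, 320 and 334 CPM across IGF1R_flfl against 313, 136, 273 and 153 CPM across OMP_IGF1R. Acsm4, another dorsal gene, was at 247, 451, 398 and 447 against 586, 371, 484 and 365 CPM. In both genes IGF1R_flfl 1 and OMP_IGF1R 12 and 18 were the lowest of their groups, as in the sums above. The ventral genes ran another way. Nrp2 was at 197, 130, 156 and 138 against 155, 156, 138 and 150 CPM, and Ncam2 at 96.0, 86.4, 86.3 and 91.0 against 69.3, 78.5, 71.2 and 89.7 CPM, so that IGF1R_flfl 1 was the highest of its group in both. None of these 4 genes was called. In the Olfr20 to Olfr412 array, 2 receptors were chosen after their values were seen. In both, IGF1R_flfl 1 and OMP_IGF1R 12 and 18 were again the lowest of their groups. This did not hold for the array as a whole. There OMP_IGF1R 18 was the highest of its group in 10 of 23 tested receptors and the lowest in 8. Olfr376 was at 1.38, 2.71, 1.5 and 4.68 against 2.4, 1.09, 2.65 and 1.27 CPM. Olfr139 was at 0.942, 1.41, 1.18 and 2.42 against 0.816, 0.452, 1.55 and 0.23 CPM. Neither was called (edgeR adjusted p = 0.558 and 0.29), and the part of the dissected zone in these values was not tested.

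**Figure D5:**
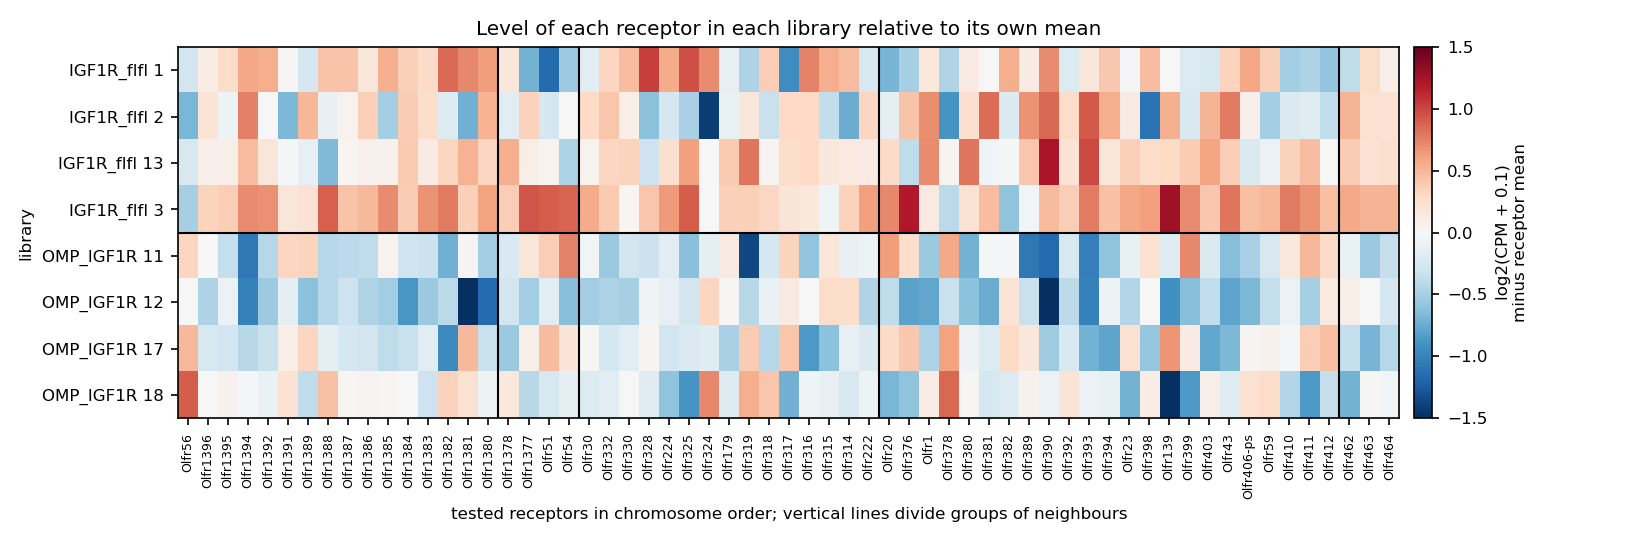
Level of each tested receptor (columns, chromosome order) in each library (rows) as log2(CPM + 0.1) minus the receptor's mean over the 8 libraries, red above and blue below the mean. The IGF1R_flfl rows are mostly red and the OMP_IGF1R rows mostly blue, with IGF1R_flfl 3 the highest of its group in 30 of 61 columns.

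The 3 receptors at the far end of the chromosome had similar log2 fold changes and were not called. Olfr464 was at 3.33, 3.7, 3.73 and 4.48 CPM across IGF1R_flfl against 2.45, 2.6, 2.3 and 3.03 CPM across OMP_IGF1R, with the groups apart (log2 fold change -0.55, SE 0.151, edgeR adjusted p = 0.0563). Olfr463 and Olfr462 had log2 fold changes of -0.61 each (edgeR adjusted p = 0.118 and 0.25). Others just outside the threshold were Olfr325, with the largest difference among uncalled receptors that were lower, -1.11 (SE 0.307, edgeR adjusted p = 0.058), and Olfr1386 with -0.55 (edgeR adjusted p = 0.0721). In Olfr325, IGF1R_flfl 2, at 2.82 CPM, lay among the OMP_IGF1R libraries at 2.11 to 3.41 CPM.

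The 18 receptors with reads but too few for the test were not mostly lower. Their totals over 4 libraries were higher in OMP_IGF1R in 11 and lower in 7, and together they had 57, 62, 49 and 74 reads across IGF1R_flfl against 60, 63, 55 and 82 across OMP_IGF1R. That is 2.06 to 2.93 CPM and 2.37 to 3.15 CPM, with the groups overlapping. Olfr323 had 1, 1, 0 and 2 against 5, 5, 4 and 3 reads. The polymorphic pseudogene Olfr225 had none against 2, 1, 2 and 2 reads. Both were named after their values were seen. With every gene that had a read in the fit, neither was called (edgeR adjusted p = 0.12 and 0.108), nor was any of the 18.

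Partners of the receptors in mature neurons were lower as well. The share called lower among all tested genes was 5.37%. Of 17 mature neuron genes, 16 were called lower and none higher, with a median log2 fold change of -0.66, the smallest p being those of Omp and of Slc17a6, the vesicular glutamate transporter, at -0.50 (SE 0.0586, edgeR adjusted p = 0.00335). Of 15 genes of odour transduction, 11 were lower, among them the phosphodiesterase Pde1c at -0.77 (edgeR adjusted p = 0.00396) and the chloride channel Ano2 at -0.90 (edgeR adjusted p = 0.00467). Of these 15, 10 are also in the mature neuron list, and 1 of the other 5 was lower. Of 5 genes that help receptors reach the membrane, 3 were lower, among them Rtp2 at -0.51 and Ric8b at -0.49, and 2 of the 5 are in the mature neuron list. The mature list without Omp summed to 15760 ± 2140 CPM in IGF1R_flfl and 10020 ± 598 CPM in OMP_IGF1R (SD, n = 4 each), a ratio of 0.636. Set against that sum, chromosome 11 receptors had 16, 16.4, 16.7 and 15 CPM per 1000 CPM of the list across IGF1R_flfl against 17.4, 16.8, 16.9 and 20.4 across OMP_IGF1R, so that the order of the groups turned.

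Regulators of receptor genes were not called. None of 8 transcription factor genes and cofactors passed, with Ebf3 at -0.19 and Ldb1 at 0.13 nearest, and 1 of the 8 had an unadjusted p under 0.05. None of 7 chromatin genes of receptor choice passed, with Kdm1a, the histone demethylase, at 0.22 (edgeR adjusted p = 0.0635) and Ehmt1 at 0.13, nor did any of 4 genes of the receptor feedback response (Atf5 at -0.22 and Eif2ak3 at -0.04) or of 7 zone genes (Nfia at 0.29 and Nfib at 0.23). At an unadjusted p under 0.05, edgeR gave 1 of the chromatin genes, 0 of the feedback genes and 4 of the zone genes, 2 in each direction. By that measure 14.1% of all tested genes were lower and 9.35% higher. Genes of younger cells were higher: 7 of 10 immature neuron genes, with Stmn1 at 0.83 and Gap43 at 0.92, and 10 of 10 precursor genes, with Insm1 at 1.08 and Ezh2 at 0.57. Of 6 sustentacular genes 1 was lower (Aldh1a7 at -0.34, with Cyp2g1 at -0.18 next and not called). Of 16 interferon genes 1 was higher (Mx1 at 1.21, with Irgm1 at 0.45 next and not called), with a median of 0.57. Among all tested genes, 5.37% were called lower and 2.83% higher. The share of these lists in the receptor differences was not tested.

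In the authors' deposited table, 16 chromosome 11 receptors passed an adjusted p of 0.05 among 52 given a value, 15 lower and 1 higher, where 13.4% of all genes given a value passed and 8.43% passed as lower. These 16 include the 12 called here and Olfr330, Olfr224, Olfr325 and Olfr464.

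DESeq2 called 14 of the receptors lower, beside 7.76% of all genes, and limma voom 12, beside 6.97% of all genes. All 11 called lower by edgeR were among the 14, and 9 of the 11 were among the 12.

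Single libraries bore on the number of calls. Leaving out IGF1R_flfl 1 or IGF1R_flfl 3 gave 5 receptors called lower each, leaving out OMP_IGF1R 11 gave 3, OMP_IGF1R 12 gave 4, OMP_IGF1R 17 gave 6, and the count was 8 to 11 when IGF1R_flfl 2, IGF1R_flfl 13 or OMP_IGF1R 18 was left out. Calls over all genes also fell, from 1425 to 841 and 886 without IGF1R_flfl 1 and 3, to 724 and 613 without OMP_IGF1R 11 and 12 and to 569 without OMP_IGF1R 18. Of the 12 called receptors, only Olfr332 and Olfr43 were called in all 8 of these fits. Fold changes of the 12 kept their direction in every such fit, from -1.91 to -1.4 for Olfr390, from -1.74 to -1.34 for Olfr393 and from 0.72 to 1.04 for Olfr56. Olfr390 was lost without OMP_IGF1R 11 (edgeR adjusted p = 0.0507) and Olfr393 without OMP_IGF1R 12 (edgeR adjusted p = 0.0523). Olfr56 was lost without IGF1R_flfl 1 or 3 or OMP_IGF1R 11, 17 or 18, with edgeR adjusted p values up to 0.0784. Olfr1383 was lost in 3 of the 8 fits, Olfr1384 and Olfr1394 in 4 each, Olfr1380 and Olfr1392 in 6 each, Olfr1 in 7 and Olfr394 in all 8. The median of the 61 stayed between -0.509 and -0.349. Without both IGF1R_flfl 2 and OMP_IGF1R 17, the libraries with bulb and muscle RNA, 8 receptors were called lower and none higher. Only 6 of these were among the 11 called lower with all 8 libraries. In this reduced fit 841 of all genes were called lower and 456 higher, and the receptors' median was -0.507.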

How the data were processed

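RNA-seq of olfactory epithelium gave 8 libraries, grouped by title, 4 in each group. Libraries were stranded, poly(A)-selected and read as pairs of 100 bases, per the labels' protocols. Per the submitters' processing notes, the genome build was GRCm38 (mm10) and the tools used by the authors were TopHat2 2.0.14, SAMtools 1.2, Trim Galore 0.3.7 and DESeq2. The sources used here name no counting program or strand setting. The deposited table holds raw counts per gene and library. A second deposited table, of the authors' comparison, holds a mean normalized signal, log2 fold changes, a test score and p-values per the file headers, and was used for description alone.

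Counts were tested with edgeR 4.0.16 in R 4.3.3 (TMM, filterByExpr, quasi-likelihood test, Benjamini-Hochberg over the 17381 tested genes), without covariates. CPM uses TMM library sizes. Libraries of a group were compared in pairs, and the mean chi-square over genes lay between 11.4 and 103.5, so none was a copy of another. Depth was 18802471 to 27793375 counts, and floors cover counting error only. DESeq2 1.42.0, limma 3.58.1 (voom with sample weights), other scalings, other filters and leaving out each library were alternatives. The main test was run on simulated data first. Named genes are the called receptors, the 10 highest per kilobase, the smallest p per group of neighbours, genes overlapping a called receptor, Igf1r, Omp, and the 2 smallest p of each list described, apart from those said to be chosen after their values were seen and a few neighbours or receptors just outside the threshold. Exons and coding sequences came from GENCODE M21, where 71 receptors matched by identifier and 10 by name. Identity was computed on coding bases, in place of proteins as first planned. The members, lists and tests were chosen with earlier results of these data known. The numbers that open the titles fall in separate ranges for the 2 groups, so a batch that follows them cannot be told apart from the group.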

Additional observations from a re-analysis of the deposited data

How the results depend on the processing

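With libraries scaled to the mature neuron list, 14063 of all 17381 tested genes were called, 13971 of them higher and 92 lower, 3 chromosome 11 receptors were lower (Olfr43, Olfr390 and Olfr393) and 6 of 61 higher, and the median of the 61 turned to 0.2006. Log2 fold changes turned positive there for Olfr330 (0.1594), Olfr1395 (0.3277), Olfr1396 (0.2904), Olfr222 (0.209), Olfr392 (0.3084), Olfr1378 (0.1067) and Olfr464 (0.1046). That list was lower in OMP_IGF1R, and scaling to it sets its change to about 0 by construction. DESeq2 called 2140 genes (1425 in edgeR) and 14 receptors lower. In simulated counts with 200 of 17381 genes changed and spread set by edgeR's estimates, 27.7% of DESeq2's calls were false, against 4.63% for edgeR. That share depends on how many genes are changed, so it does not give the share of false calls in these data. Upper-quartile factors gave 44.4% of calls as higher against 34.5% with TMM. With 1 library left out in turn, 569 to 1477 genes, 3 to 11 receptors lower and 0 to 1 higher were called. Leaving out IGF1R_flfl 2 and OMP_IGF1R 17 together left 0 called higher. The cause of these shifts was not tested. Under the other normalizations, filters and voom, 9 to 12 receptors were lower and 1 higher, with Olfr1 and Olfr394 lost under 4 of these settings. The summed CPM ratio was 0.746 with raw library totals and 0.711 with TMM. Neighbours parted at gaps over 0.5 Mb formed 7 groups. No paired analysis was possible because the groups share no replicate number. Receptors with few reads rest on wide errors, and a missing call there does not show that they did not differ.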
